A study of Mus musculus with 8 samples.

Results

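The circadian clock transcripts of the mouse proximal small intestine were followed in 10 genes: the activators Arntl (also called Bmal1) and Clock, the repressors Per1, Per2, Per3 and Cry1, the receptors Nr1d1 and Nr1d2, and the leucine zipper factors Dbp and Tef. Their members were the probe sets on the array whose only gene symbol is one of these names, which gave 25 of the 45037 probe sets tested and 10 of the 18193 genes named. The groups were 4 mice with Pdx1 inactivated in the gut epithelium (genotype Pdx1flox/flox;VilCre, here KO) and 4 controls (genotype Pdx1flox/flox, here Ctrl). PDX1 is a DNA-binding regulator needed for the pancreas and the upper gut. All 8 mice were males aged 6 months, described in the labels as brothers from a shared litter, kept unstressed on a standard diet with 4.5% fat. Controls and knockouts alike carried the floxed alleles, with loxP sites around the exon that encodes the homeodomain, exon 2, while the transgene that expresses Cre from a 12.4 kb villin promoter fragment was named for the knockouts alone, so loss of Pdx1 and presence of Cre cannot be told apart. RNA came from the 5 cm of intestine next to the pylorus and was read on 1 array per mouse. It was whole tissue, so a lower share of a cell type and less RNA per cell cannot be told apart in these values. The sources used here do not give the hour of tissue collection.

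The circadian clock is a feedback loop of transcription. ARNTL and CLOCK proteins pair and switch on genes that carry E-box motifs, among them the Per, Cry, Nr1d1, Nr1d2, Dbp and Tef genes; PER and CRY proteins then shut this pair down, and the receptors encoded by Nr1d1 and Nr1d2 (REV-ERB alpha and beta) repress Arntl through RORE motifs. DBP and TEF bind D-box motifs in further rhythmic genes. Arntl transcripts are therefore known to peak at a time of day when those of Dbp and Per2 are low, in the gut as in the liver, where feeding times help to set the phase.

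Promoter windows of 4 members are shown because they hold the E-box, D-box or RORE letters through which the loop is known to work; they were chosen for these letters, not for how the genes varied. The windows are those of RefSeq on GRCm38.p6, from 250 bases before to 50 bases after a gene's start, in lower case with the motif letters in capitals. Tef (window at chr15:81802423-81802722, plus strand) has an E-box, Per1 (chr11:69098699-69098998, plus strand) an E-box and a D-box, Per3 (chr4:151044616-151044915, minus strand) a pair of D-boxes, and Arntl (chr7:113207261-113207560, plus strand) a RORE core downstream of this start.
Tef: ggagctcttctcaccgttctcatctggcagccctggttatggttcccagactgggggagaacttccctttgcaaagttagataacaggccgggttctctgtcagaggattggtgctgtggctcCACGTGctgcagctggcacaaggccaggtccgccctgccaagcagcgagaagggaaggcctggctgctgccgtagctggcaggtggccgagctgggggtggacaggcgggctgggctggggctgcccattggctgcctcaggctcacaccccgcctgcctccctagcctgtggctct
Per1: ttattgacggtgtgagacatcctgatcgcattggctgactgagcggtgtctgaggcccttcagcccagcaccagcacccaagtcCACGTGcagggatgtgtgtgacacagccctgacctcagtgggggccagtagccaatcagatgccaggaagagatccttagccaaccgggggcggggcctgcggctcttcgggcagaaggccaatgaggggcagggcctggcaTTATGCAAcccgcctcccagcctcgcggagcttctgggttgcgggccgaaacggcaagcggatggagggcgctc
Per3: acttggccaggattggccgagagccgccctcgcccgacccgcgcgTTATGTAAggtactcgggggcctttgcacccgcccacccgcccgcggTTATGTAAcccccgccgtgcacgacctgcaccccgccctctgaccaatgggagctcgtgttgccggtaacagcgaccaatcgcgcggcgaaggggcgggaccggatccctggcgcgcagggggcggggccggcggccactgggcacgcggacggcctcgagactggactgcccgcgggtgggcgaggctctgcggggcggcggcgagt
Arntl: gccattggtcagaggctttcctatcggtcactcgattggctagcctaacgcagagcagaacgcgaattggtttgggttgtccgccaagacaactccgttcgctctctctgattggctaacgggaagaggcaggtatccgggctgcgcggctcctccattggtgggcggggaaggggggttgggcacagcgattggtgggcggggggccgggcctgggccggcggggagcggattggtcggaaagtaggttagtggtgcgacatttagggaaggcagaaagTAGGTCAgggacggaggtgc
The motifs searched, on both strands, were CACGTG (E-box), CACGTT (a variant E-box), TTATGNAA (D-box), TAGGTCA and TGGGTCA (RORE cores). The E-box of Tef begins 127 bases before the start and that of Per1 166 bases before it. The D-box of Per1 begins 24 bases before the start, and those of Per3 begin 205 and 158 bases before it. The TAGGTCA of Arntl begins 30 bases after the start used for this window. Among all 32851 windows of this length, CACGTG was present in 7.15%, CACGTT in 4.68%, TTATGNAA in 3.38%, TAGGTCA in 2.61% and TGGGTCA in 3.98%. For the members, 14 windows of 9 genes were found, and none for Per2. Of these windows 7, from 6 genes, held at least 1 motif, against 20.1% of all windows. The motifs were searched because the loop is known to work through them, and the Arntl windows overlap. The comparison is therefore a description and not a test. Cry1 also had CACGTG, 60 bases before its start, and Nr1d1 had CACGTT, 28 bases before. The windows of Clock, Dbp and Nr1d2 held none of these letters, and a match is a description of letters, not of a bound site.

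Array medians lay between 5.23 and 5.27 on the log2 scale, and Pearson's r between arrays, across probe sets, between 0.990 and 0.996. Pdx1 itself separated the groups: its brighter probe set read 6.04, 5.91, 6.18 and 5.58 in KO mice 1 to 4, against 8.33, 8.61, 8.16 and 8.98 in Ctrl mice 1 to 4. Its log2 change was -2.59 (adjusted p = 4.16e-04 in limma). The enterocyte markers measured had means between 9.67 and 14.59 on the log2 scale. Exocrine pancreas markers were read as well, with means between 12.79 and 13.98, and stomach markers with means of up to 13.50.

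The first question was whether clock transcripts differ when the epithelium lacks Pdx1. None of the 25 clock probe sets passed the test. With limma 0 of 25 had an adjusted p under 0.05, where 0.0422% of all probe sets passed. At an unadjusted p under 0.05 there were also 0 of 25, against 7.13% of all probe sets. An ordinary linear model called 0 of 25 as well, against 0.00444% of all, with 0 at an unadjusted p under 0.05, against 7.29% of all. In 0 of 25 did the KO and Ctrl values fail to overlap, against 4.43% of all probe sets. The changes, KO minus Ctrl, ran from -0.31 (Dbp) to 0.15 (Nr1d1), 11 above 0 and 14 below, with a median of -0.024, while the median over all probe sets was 4.75e-05. The lowest adjusted p among members was 0.755, for a dim Tef probe set.

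**Figure D1:**
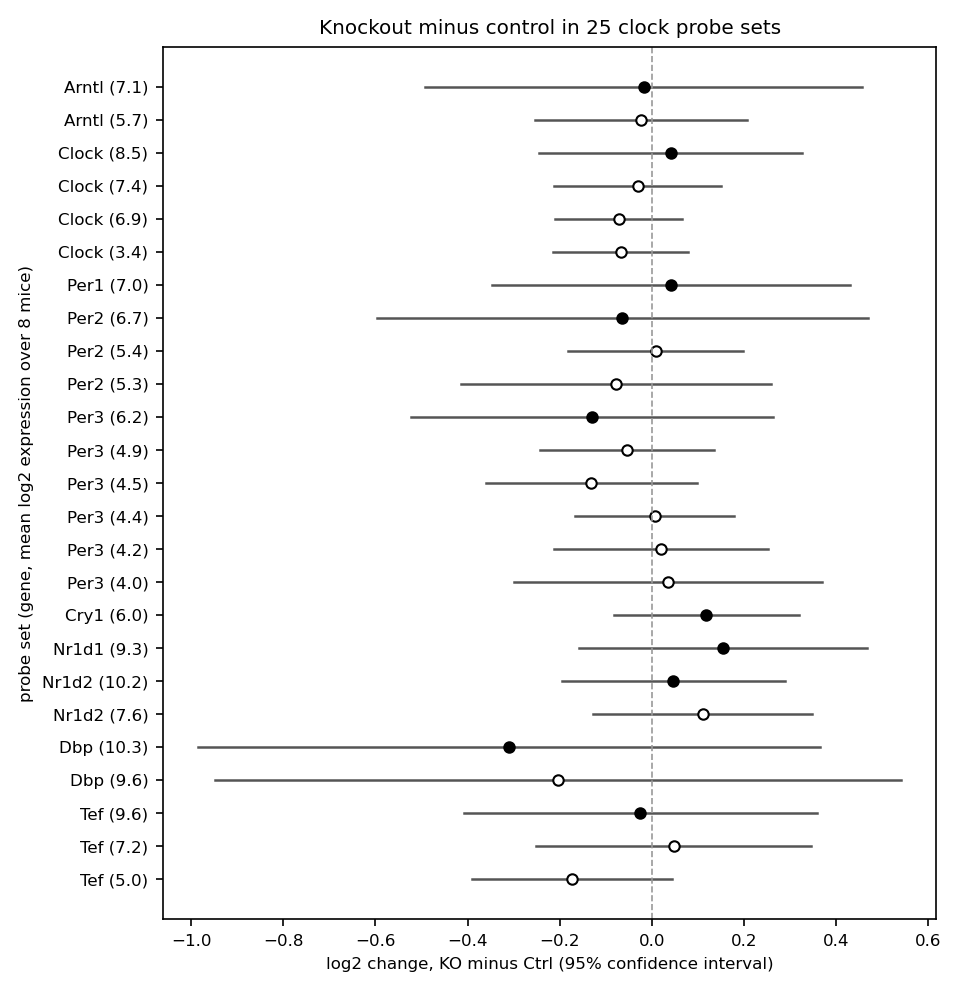
Log2 change, KO minus Ctrl (horizontal axis), of each of the 25 clock probe sets (vertical axis, with the mean log2 expression over 8 mice in brackets); points are limma estimates, filled for the brightest probe set of a gene, and lines are 95% confidence intervals. Every interval includes 0, and the interval of the brightest Dbp probe set runs from -0.98 to 0.37.

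How firmly this bounds a difference depended on the gene. Cry1, a cryptochrome that blocks the ARNTL and CLOCK pair, had a change of 0.12 with a 95% confidence interval from -0.083 to 0.32. Nr1d2 had 0.047 (interval -0.19 to 0.29). For these genes the interval stays well within 2-fold, which is 1 on the log2 scale. Dbp, a D-box activator and the member with the widest interval on its brightest probe set, had -0.31 (interval -0.98 to 0.37), so the interval includes a level close to 2-fold lower in KO mice.

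The genes are described next by role, in the brightest probe set of each. Arntl read 6.70, 7.27, 7.73 and 6.85 in KO mice 1 to 4, against 7.07, 7.55, 6.90 and 7.12 in Ctrl mice 1 to 4. The highest values came from KO 3 and Ctrl 2 and the lowest from KO 1 and KO 4, so the groups overlapped fully. The means were 7.14 ± 0.46 in KO and 7.16 ± 0.28 in Ctrl (SD, n = 4 each), a change of -0.018 with an interval from -0.49 to 0.46 (adjusted p = 0.991 in limma). Clock, the partner of ARNTL, read 8.60, 8.37, 8.56 and 8.65 in KO, against 8.60, 8.52, 8.12 and 8.78 in Ctrl. Only Ctrl 3 stood low in Clock, and the change was 0.041 (adjusted p = 0.967 in limma). The other 3 Clock probe sets had changes between -0.072 and -0.031.

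Among the repressors, Per1, Per2 and Per3 were all lowest in KO 3, the mouse with the most Arntl transcript. Per2, whose protein joins PER1 and CRY in the repressor complex, read 7.12, 6.36, 6.10 and 7.10 in KO, against 7.01, 6.32, 6.96 and 6.66 in Ctrl. KO 2, KO 3 and Ctrl 2 were the lowest, and KO 1 and KO 4 the highest. The change was -0.065 with an interval from -0.60 to 0.47 (adjusted p = 0.973 in limma). Per3, a relative of Per1 and Per2, read 6.50, 6.07, 5.68 and 6.49 in KO, against 6.37, 6.06, 6.29 and 6.54 in Ctrl. KO 3 was again the lowest, and the change was -0.13 (adjusted p = 0.910 in limma). Per1, which also answers to light and glucocorticoids, read 7.28, 6.99, 6.57 and 7.31 in KO, against 6.89, 6.90, 6.79 and 7.39 in Ctrl. Here Ctrl 4 was the highest mouse and KO 3 the lowest, with a change of 0.042 (adjusted p = 0.975 in limma). Cry1 read 6.27, 5.90, 6.06 and 6.12 in KO, against 6.09, 5.86, 6.01 and 5.92 in Ctrl, so its mice lay close together (adjusted p = 0.818 in limma).

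The mice fell in a different order for each of the REV-ERB receptors. Nr1d2 read 10.40, 10.05, 9.98 and 10.39 in KO, against 10.27, 10.01, 10.19 and 10.17 in Ctrl. KO 1 and KO 4 were the highest, as for Per2, and KO 3 and Ctrl 2 the lowest (adjusted p = 0.952 in limma). Nr1d1 read 9.56, 9.36, 9.66 and 9.00 in KO, against 9.22, 9.13, 9.49 and 9.12 in Ctrl. Here KO 3 was the highest mouse and KO 4 the lowest, and the change was 0.15 with an interval from -0.16 to 0.47 (adjusted p = 0.856 in limma). Nr1d1 is represented by 1 probe set, so its pattern had no second reading on these arrays.

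Dbp had the widest spread of the 10 genes. It read 10.61, 9.77, 9.34 and 10.85 in KO, against 10.78, 10.03, 10.66 and 10.34 in Ctrl. KO 4 stood 2.84-fold above KO 3, while the means were 10.14 ± 0.71 in KO and 10.45 ± 0.34 in Ctrl (SD, n = 4 each). The change had an adjusted p of 0.868 in limma. The other Dbp probe set, with 10.10, 9.25, 8.63 and 10.13 in KO against 10.11, 9.05, 10.01 and 9.76 in Ctrl, likewise had KO 2, KO 3 and Ctrl 2 lowest. Tef read 9.92, 9.37, 9.13 and 9.77 in KO, against 9.70, 9.24, 9.76 and 9.59 in Ctrl. The same mice, KO 3 and Ctrl 2, were lowest in Tef, and the change was -0.025 (adjusted p = 0.986 in limma).

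**Figure D2:**
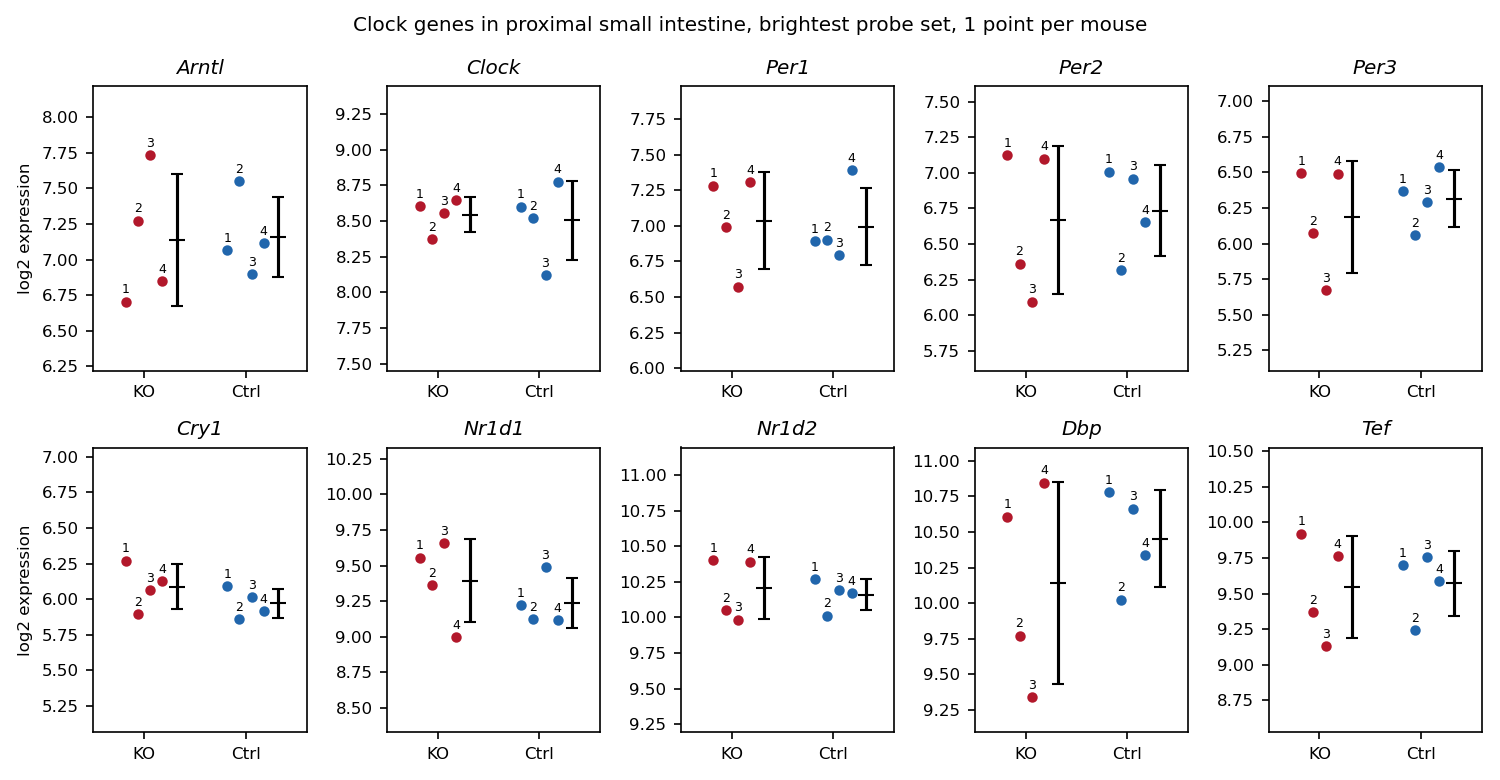
Log2 expression (vertical axis) of the brightest probe set of each clock gene, 1 point per mouse with its replicate number, KO left and Ctrl right in each panel; the bar is the mean ± SD (n = 4), and every panel spans 2 log2 units at its own level. KO and Ctrl points overlap in all 10 panels, and Dbp runs from 9.34 to 10.85.

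The second question was how far the mice of a group differ. The pooled SD within groups was 0.55 for the brightest Dbp probe set, larger than that of 99.2% of all probe sets, and 0.43 for Per2 (98.5%) and 0.38 for Arntl (98.0%). Per3 had 0.31 (96.5%), Per1 0.31 (96.4%) and Tef 0.30 (96.2%). These 6 of 10 genes lay in the top 5% of all probe sets by this measure in their brightest probe set, and of all 25 clock probe sets 7 did. The other 4 were Nr1d1 at 0.24 (91.8%), Clock at 0.21 (87.9%), Nr1d2 at 0.17 (75.8%) and Cry1 at 0.13 (53.3%). The count of 6 was 3 without KO 3, and 3 when the genes were ranked only among probe sets with a mean of at least 5. In 9 of 10 genes, all but Clock, the SD was larger in KO than in Ctrl mice, where 48.4% of all probe sets had a larger SD in KO; the genes vary together, so these are not separate observations, and the difference in spread was not tested.

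The same mice were high or low in several genes. After removal of the group means, Dbp, Tef, Per2, Per3 and Nr1d2 were all above their group mean in KO 1, KO 4 and Ctrl 1 (5 of 5 genes in each), and all below it in KO 2, KO 3 and Ctrl 2 (0 of 5). Ctrl 3 had 4 of 5 above and Ctrl 4 had 3 of 5. Arntl went the other way, with a deviation of -0.44 in KO 1, -0.29 in KO 4 and -0.091 in Ctrl 1, and of 0.13 in KO 2, 0.59 in KO 3 and 0.39 in Ctrl 2. These 5 genes were grouped after their values were seen.

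**Figure D3:**
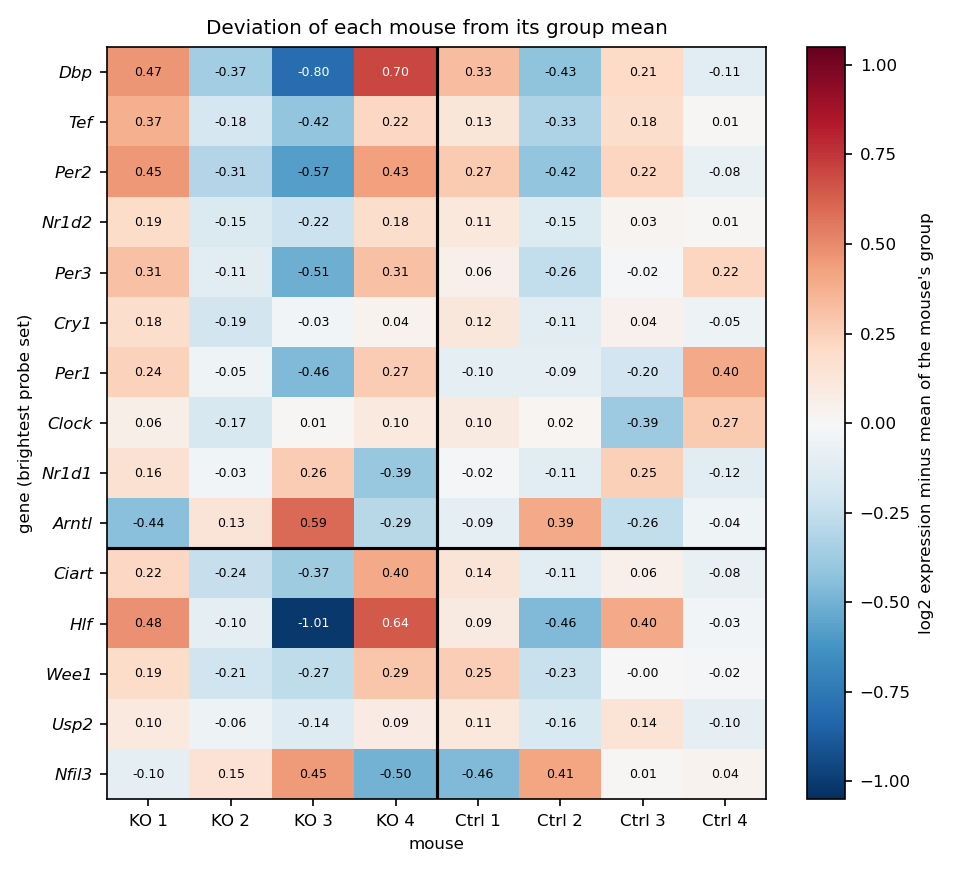
Log2 expression of each mouse minus the mean of its group (colour and printed value), for the 10 clock genes above the horizontal line and 5 other clock-related genes below it; columns are mice, KO 1 to 4 left of the vertical line and Ctrl 1 to 4 right of it. Dbp is at -0.80 in KO 3 and 0.70 in KO 4, while Arntl is at 0.59 and -0.29 in the same mice.

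Pearson's r was computed for all 45 pairs of the 10 genes over the 8 mice, on deviations from the group means, with an exact two-sided permutation test that shuffled values within groups and Benjamini-Hochberg adjustment over the 45 pairs. The shuffle has 576 arrangements, so the smallest p it can give is 0.00174. Of the 45 pairs, 8 passed after adjustment, 5 with r above 0 and 3 below, and 18 had an unadjusted p under 0.05. No share over other pairs of genes is given for this test, so these counts cannot be set against one. Many other genes varied with Dbp too: over all probe sets the median size of r with its brightest probe set, sign left aside, was 0.410. With raw values and all 40320 pairings of the mice 16 of the 45 pairs passed, among them all 8. When any mouse was left out 0 pairs passed, at a lowest adjusted p of 0.0521; with 7 mice there are 144 arrangements, whose smallest p is 0.00694. Over those leave-outs r of the 8 pairs stayed between 0.932 and 0.994 for the positive ones and between -0.994 and -0.887 for the negative ones.

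Arntl and Tef gave the strongest opposition, with r = -0.988 and Spearman's rho = -1 (exact permutation p = 0.00174, adjusted p = 0.0313, n = 8). Without KO 3 and Ctrl 2, the mice farthest from the median of Arntl, r was still -0.983. Arntl and Per2 had r = -0.957 and rho = -0.976 (exact permutation p = 0.00521, adjusted p = 0.0391), and r = -0.915 without those mice. Arntl and Nr1d2 had r = -0.925 and rho = -0.952 (exact permutation p = 0.00868, adjusted p = 0.0488), and r = -0.870 without them. So the transcript of the activator was low in the mice whose Tef, Per2 and Nr1d2 transcripts were high, in KO and in Ctrl mice. Arntl and Tef had r = -0.989 within the 4 KO mice and -0.986 within the 4 Ctrl mice. For Arntl and Per2 these were -0.972 in KO and -0.916 in Ctrl, and for Arntl and Nr1d2 -0.952 in KO and -0.851 in Ctrl.

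Per2 varied across mice together with Dbp, Nr1d2 and Tef. Per2 and Dbp had r = 0.984 and rho = 0.976 (exact permutation p = 0.00347, adjusted p = 0.0313), and r = 0.974 without KO 3 and Ctrl 2. Per2 and Nr1d2 had r = 0.980 (exact permutation p = 0.00174, adjusted p = 0.0313), with rho = 0.976, and Per2 and Tef had r = 0.980 (exact permutation p = 0.00347, adjusted p = 0.0313), with rho = 0.976. Without KO 3 and Ctrl 2 these were 0.961 and 0.954. Nr1d2 had r = 0.973 with Dbp (rho = 0.952, exact permutation p = 0.00347, adjusted p = 0.0313) and r = 0.957 with Tef (rho = 0.952, exact permutation p = 0.00868, adjusted p = 0.0488), or 0.896 and 0.898 without KO 2 and KO 3.

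Other pairs were close to the threshold without passing. Dbp and Tef had r = 0.941 (rho = 0.952, exact permutation p = 0.0104, adjusted p = 0.0521), Arntl and Dbp had r = -0.929 (rho = -0.952, exact permutation p = 0.0122, adjusted p = 0.0547), and Per1 and Per3 had r = 0.890 (rho = 0.714, exact permutation p = 0.0139, adjusted p = 0.0568). Without the 2 mice farthest from the median of the first gene named, these were 0.968, -0.837 and 0.716. Per3 had an r between 0.866 and 0.907 with Dbp, Tef, Per2 and Nr1d2, and none of its pairs passed. Within the 4 KO mice these r values lay between 0.955 and 0.976. Within the 4 Ctrl mice they were 0.480 with Dbp, 0.660 with Tef, 0.524 with Per2 and 0.713 with Nr1d2. Without KO 3 and Ctrl 2, r of Per2 and Per3 was 0.645. Clock was in 0 passing pairs of 9, and so was Nr1d1, whose r with Dbp was -0.367 (rho = -0.310, exact permutation p = 0.536, adjusted p = 0.710). For Nr1d1 that value rests on KO 3 and KO 4: without them r with Dbp was 0.691.

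**Figure D4:**
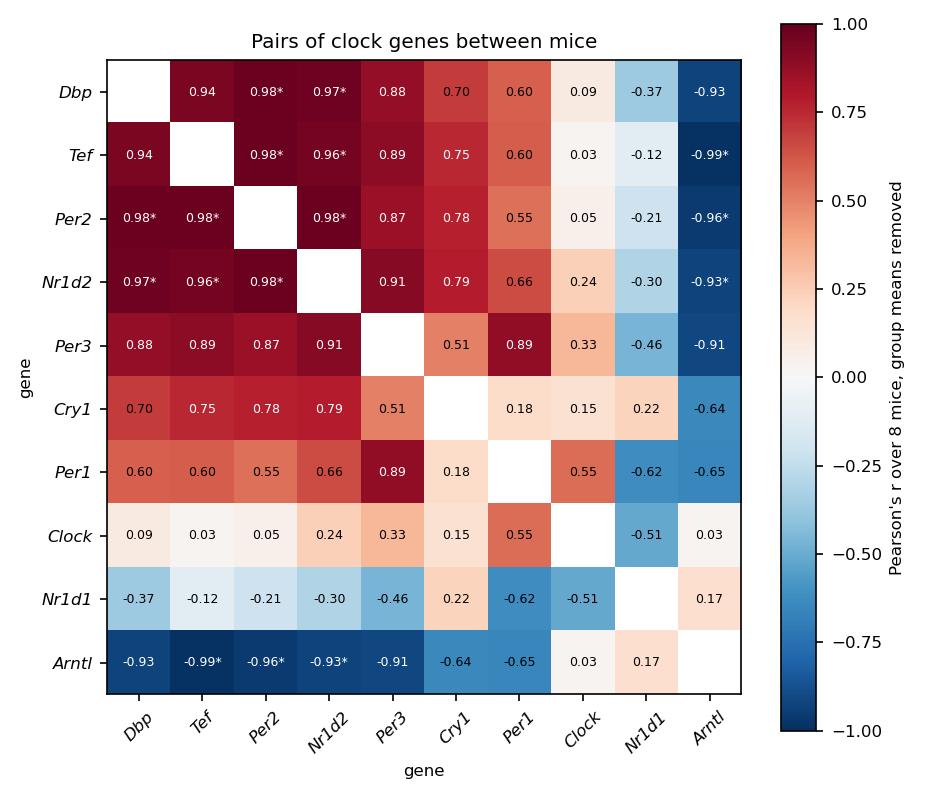
Pearson's r (colour and printed value) for each pair of the 10 clock genes over 8 mice with group means removed; rows and columns are genes, and an asterisk marks an adjusted p under 0.05 in the exact permutation test. Arntl has r of -0.99 with Tef and -0.96 with Per2, while the Clock and Nr1d1 rows hold no asterisk.

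**Figure D5:**
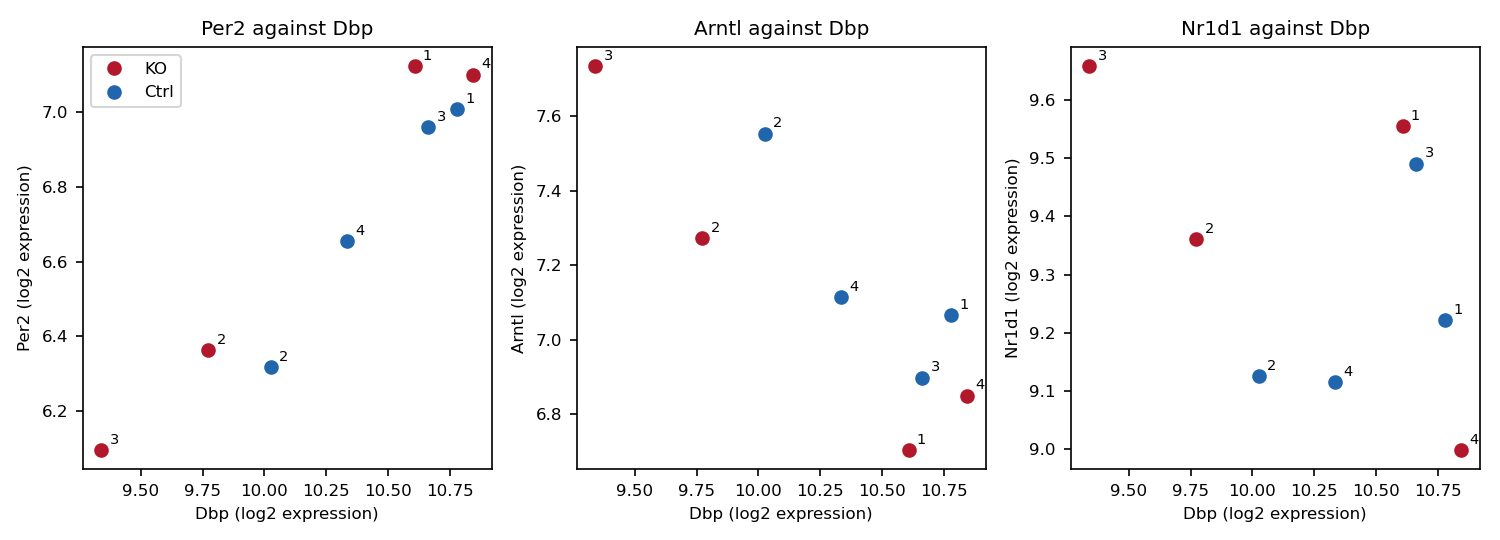
Log2 expression of Per2, Arntl and Nr1d1 (vertical axes) against that of Dbp (horizontal axes), 1 point per mouse with its replicate number, KO red and Ctrl blue. Per2 is higher and Arntl lower in mice with more Dbp transcript, KO and Ctrl points are mixed along both, and Nr1d1 has no such order.

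Not every probe set of a gene followed its brightest one. The second Arntl probe set, at a mean of 5.72, had r = 0.350 with the brightest Dbp probe set, against -0.929 for the brighter Arntl one. A dim Per3 probe set, at a mean of 4.90, had r = -0.935 with Dbp, against 0.878 for the brightest. Brighter probe sets could differ too. The other Nr1d2 probe set, at a mean of 7.65, had r = 0.583 with Dbp, against 0.973 for the brightest. Those of Tef, at means of 7.25 and 4.97, had 0.766 and 0.796, against 0.941. Those of Per2, at means of 5.44 and 5.27, had 0.192 and 0.789, against 0.984. The probe sets of a gene read different stretches of its transcript, and dim ones carry more background. Why they differed here was not tested. Of the 24 clock probe sets other than the brightest Dbp one, 4 had r of at least 0.9 with it, against 1.40% of all probe sets, and 2 had r of at most -0.9, against 1.91% of all. The 4 include the other probe set of Dbp itself (r = 0.973). With a gene's probe sets averaged, 0 of 45 pairs passed, at a lowest adjusted p of 0.0521, and the 8 pairs had r between 0.854 and 0.939 or between -0.928 and -0.746.

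Further genes were taken from a list of 35, of which 32 were measured, by 80 probe sets. The list held further clock loop genes, protein modifiers, rhythmic output genes, glucocorticoid response genes and immediate early genes. Between KO and Ctrl 0 of the 80 passed (limma, lowest adjusted p = 0.423), and 13 had an unadjusted p under 0.05, where 0.0422% and 7.13% of all probe sets did; in the ordinary linear model 0 of the 80 passed too. Their median change was -0.0088. In the loop group the smallest p values belonged to Rorb, a nuclear receptor known from brain and retina, with -0.42 on a probe set at 3.83 in KO and 4.25 in Ctrl and -0.047 on its brightest, and to Npas2, a relative of Clock that can pair with ARNTL, with 0.38 (adjusted p = 0.623). Npas2 read 6.08, 6.26, 6.37 and 5.72 in KO, against 5.71, 5.62, 5.84 and 5.74 in Ctrl, so KO 4 lay among the controls. Among protein modifiers, Btrc, part of a ubiquitin ligase for PER proteins, had -0.16 on a dim probe set (mean 3.91) and 0.019 on its brightest, and the casein kinase Csnk1d, which phosphorylates PER, had 0.16 on 1 probe set and 0.020 on its brightest. Among output genes, Tsc22d3, a glucocorticoid-induced gene, had 0.45 (0.36 on its brightest probe set) and the cold-induced RNA-binding protein gene Cirbp 0.35. In the glucocorticoid group Zbtb16 had -0.21 (-0.055 on its brightest probe set) and Ddit4 0.32, and in the immediate early group Egr1 had -0.23 and Junb 0.093. None of these passed.

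Between mice, 5 of those 32 genes followed Dbp past the threshold (exact permutation within groups, adjusted over the 32 genes), 4 with r above 0 and 1 below. No share over all probe sets is given for this test, so the count cannot be set against one. Of all probe sets, 1.40% had r of at least 0.9 with the brightest Dbp probe set and 1.91% had r of at most -0.9. Hlf, a D-box factor related to DBP and TEF, had r = 0.945 (rho = 0.976, p = 0.00347, adjusted p = 0.0417). It read 7.46, 6.88, 5.97 and 7.62 in KO, against 7.18, 6.62, 7.49 and 7.06 in Ctrl, with KO 3 and Ctrl 2 lowest. Ciart, a repressor of the ARNTL and CLOCK pair, had r = 0.978 (rho = 0.976) and Wee1, a cell cycle kinase driven by E-boxes, had r = 0.951 (rho = 0.976), each with an exact permutation p of 0.00521 and an adjusted p of 0.0417. Usp2, a deubiquitinase with rhythmic transcripts, had r = 0.866 (rho = 0.714, exact permutation p = 0.00694, adjusted p = 0.0444). Nfil3, which competes with DBP at D-boxes as a repressor, had r = -0.902 (rho = -0.976, exact permutation p = 0.00521, adjusted p = 0.0417). Nfil3 read 5.18, 5.43, 5.72 and 4.78 in KO, against 4.83, 5.71, 5.31 and 5.34 in Ctrl, so it was highest in KO 3 and Ctrl 2. Without KO 3 and KO 4 the r values were 0.899 for Hlf, 0.957 for Ciart, 0.941 for Wee1, 0.897 for Usp2 and -0.803 for Nfil3.

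The genes most like Dbp between mice were taken from the 10548 other genes whose brightest probe set had a mean of at least 6, by Pearson's r over 8 mice with group means removed. The 8 highest were Ttll1 (0.991), Nudt22 (0.989), Tmem37 (0.989), Slc25a34 (0.983), Phkb (0.983), Tspan13 (0.982), Pex11g (0.980) and Ciart (0.978). The 4 lowest were Arhgap9 (-0.996), Nop58 (-0.994), Utp20 (-0.992) and Trim21 (-0.991). They are the ends of a ranking of many genes over 8 mice and are given without a test. Counting the members as well, among 10558 genes with Dbp itself at place 1, Per2 ranked at place 5 from the top, Nr1d2 at place 15 and Tef at place 74, while Arntl was at place 227 from the bottom. The other members lay further from the ends: from the top, Per3 was at place 329, Cry1 at 1207, Per1 at 1705, Clock at 4181 and Nr1d1 at 6592. Dbp spread more than any of the 8 highest and 4 lowest genes: the pooled SD was 0.27 for Ciart and 0.25 for Tmem37.

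Summed levels of 7 marker lists were set beside Dbp; over all probe sets the median size of r with Dbp, sign left aside, was 0.410. The summed level of 7 of 8 enterocyte markers, on the log2 scale, ran from 16.73 to 16.91 in KO and from 16.65 to 16.79 in Ctrl mice, and its r with Dbp was 0.83. Its members differed in their brightest probe sets. Fabp1 had r = 0.888, Apoa4 0.873, Alpi 0.767, Fabp2 0.588 and Apoa1 0.572, while Vil1 had -0.149 and Cdx2 -0.244. The summed level of 4 of 4 immune markers ran from 10.53 to 10.94 in KO and from 10.37 to 10.72 in Ctrl mice, with an r of -0.882. KO 2 and KO 3 had 10.94 and 10.86, KO 1 and KO 4 had 10.54 and 10.53. Immune members differed as well in their brightest probe sets: Ptprc had r = -0.809 and Cd3e -0.727, while Cd79a had -0.344 and Cd68 -0.318. For 5 of 5 smooth muscle markers the range was 12.79 to 13.22 in KO and 12.71 to 12.85 in Ctrl (r = -0.320), for 6 of 8 exocrine pancreas markers 15.69 to 16.72 in KO and 14.62 to 17.05 in Ctrl (r = -0.439), and for 6 of 6 stomach markers 14.44 to 14.79 in KO and 14.18 to 15.58 in Ctrl (r = -0.592). In neuron and glia markers (5 of 6 measured, r = 0.643) the sum was 7.66 to 7.96 in KO and 7.86 to 8.05 in Ctrl, and in adipocyte markers (2 of 3 measured, r = 0.453) 8.27 to 9.39 in KO and 8.40 to 9.19 in Ctrl. These r values over 8 mice are descriptions without a test; of the lists' brightest probe sets 0 passed between KO and Ctrl, and the part of such cells in the clock results was not tested.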

How the data were processed

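Total RNA of whole tissue was made into biotin-labelled cRNA and hybridised to Affymetrix arrays, per the labels' protocols. The authors deposited 1 table of log2 expression values, and Partek 6.4 is named, with no role, in the submitters' processing notes. The sources used here do not give its background correction, summarisation or normalization. That the scale is log2 was read from the values, between 2.55 and 14.83. Medians were nearly equal, so a common shift of all genes would go unseen. For arrays there is no depth, and their number sets the precision.

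Of 45101 probe sets 64 array controls were left out. Symbols came from GEO's platform annotation, and all 10 member symbols matched RefSeq genes of GRCm38.p6. KO minus Ctrl was fitted in R 4.3.3 with limma 3.58.1 (lmFit, then eBayes) on all 45037 probe sets, with no filter, covariate or block, two-sided, with Benjamini-Hochberg adjustment and a threshold of 0.05. Correlations used Python 3.11.15 and figures matplotlib 3.10.9. A gene's brightest probe set is the one with the highest mean over 8 arrays. The labels call the samples biological replicates. On simulated data for this comparison, with 45037 probe sets, 58.0% of those changed by 0.5 and 96.0% of those changed by 1 were recovered. There were 11 false calls. The changed probe sets were drawn at random from all, each with its own SD, and the median pooled SD over all was 0.127. The median over the clock probe sets was 0.173, and the brightest Dbp probe set had 0.55. These rates therefore do not give the recovery for the clock genes.

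Members and lists were chosen with earlier results of these data known. The rule for named genes took all members, the genes past the threshold or with the 2 smallest p in each further group, and the 8 most and 4 least like Dbp. Samples with the same replicate number did not deviate together (r of deviations -0.089, -0.12, -0.18 and 0.076), so the numbers were not used as pairs. The alternatives were a replicate block, repeated quantile normalization, median centring, a mean minimum or floor of 5, array weights, an ordinary linear model, a robust prior with a trend, another threshold, rank correlation, averaged probe sets and each mouse left out.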

Additional observations from a re-analysis of the deposited data

Results flagged for a closer look

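Each gene's 4 values per group were examined for a mouse far from the other 3, in 114 groups of 4 from the clock probe sets and the brightest probe set of each further listed gene. Chance alone picks out about 1 in 20 such groups. None of the 50 clock groups had such a mouse (0 of 50), and 4 of the others did. Gsk3b read 9.19 in KO 1, against 8.90 to 8.92 in the other KO mice. Egr1 read 7.22 in KO 1, against 7.92 in the other KO mice. Slc15a1 read 9.93 in KO 2, against 10.17 to 10.21 in the other KO mice. Cirbp read 7.78 in Ctrl 4, against 7.31 to 7.37 in the other Ctrl mice.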

How the results depend on the processing

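No clock probe set passed under any setting run (0 of 25), nor did any probe set of the further listed genes (0). Over all probe sets 19 passed; 24 did with the replicate block, a pairing that rests on a shared number only, 4 with values under 5 set to 5, 2 in the ordinary linear model, 29 at an adjusted p under 0.1, and 13 to 20 with a mouse left out. Pdx1 kept its direction under all settings but did not pass with values under 5 set to 5 (adjusted p = 0.0833) or in the ordinary linear model (0.113). The small differences of clock genes changed sign in some of them. With array weights Per2 had 0.0059 and Tef 0.044. With a mouse left out the ranges were -0.22 to 0.13 for Arntl, -0.088 to 0.13 for Clock, -0.048 to 0.20 for Per1, -0.22 to 0.13 for Per2, -0.23 to 0.039 for Per3, -0.018 to 0.12 for Nr1d2 and -0.15 to 0.11 for Tef, while Dbp (-0.54 to -0.042), Cry1 and Nr1d1 kept their sign. Of 45 pairs 8 passed; with raw values and all pairings of the mice together 16, with averaged probe sets 0, with Spearman's rho 0 (lowest adjusted p = 0.0625), with a mouse left out 0 to 0, and after repeated quantile normalization 11, the 8 among them. Fewer mice leave fewer arrangements; for the other settings the cause was not tested. The count of 6 genes of wide spread was 3 among probe sets with a mean of at least 5 and 3 to 6 with a mouse left out, at its lowest without KO 3.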
